A study of Mus musculus with 42 samples.

Results

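The 7 genes of the AP-1 family of transcription factors, *Fos*, *Fosb*, *Fosl1*, *Fosl2*, *Jun*, *Junb* and *Jund*, were followed in 3 tissues, the liver, white fat (WAT) and brown fat (BAT), of mice given water or VAAM. They were taken as all probe sets annotated to one of these genes alone, which gave 11 of 45037 probe sets and 7 of 18193 genes. The members were chosen by their mean level per tissue and their difference between VAAM and water, so both are described here without a test. VAAM (Vespa amino acid mixture) holds free amino acids in the proportions found in the saliva of hornet larvae. Male ddY mice, 5 weeks old at purchase, received 37.5 μL per g body weight of 1.8% VAAM or of water by feeding tube once a day for 5 days. All were killed 4 h after the last dose. RNA of each tissue was hybridized to 1 array per mouse, 7 for water and 7 for VAAM, which gave 42 arrays. Liver pieces were placed in RNAlater and both fats were frozen, and the mice given the casein-like mixture were not analysed here.

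AP-1 is a dimer of basic leucine zipper proteins that binds short DNA elements in promoters and enhancers. Jun proteins can pair with each other or with Fos proteins, whereas Fos proteins do not pair with each other. *Fos*, *Fosb*, *Jun* and *Junb* belong to the immediate early genes, which are transcribed within minutes of a hormone, nutrient, growth factor or stress signal and whose mRNAs are short-lived. In adipose tissue and liver, AP-1 members have been linked to adipocyte differentiation, thermogenic signals, regeneration and the acute phase response.

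The 250 bases before the annotated start are shown for *Fos*, *Junb* and *Jun*, whose levels are set against each other between mice further on. They are RefSeq sequences of build GRCm38.p6, with capitals for the motifs TGACG (the core of a cAMP response element), TATAAA and TGACATCA (an AP-1-like element) found on either strand. The *Fos* window is chr12:85473640-85473889 on the plus strand, that of *Junb* is chr8:84978749-84978998 on the minus strand, and that of *Jun* is chr4:95052223-95052472 on the minus strand.
Fos: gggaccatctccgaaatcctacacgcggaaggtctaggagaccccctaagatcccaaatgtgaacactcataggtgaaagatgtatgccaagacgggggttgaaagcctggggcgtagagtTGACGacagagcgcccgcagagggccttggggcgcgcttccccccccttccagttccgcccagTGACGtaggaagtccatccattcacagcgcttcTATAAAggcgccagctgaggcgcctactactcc
Junb: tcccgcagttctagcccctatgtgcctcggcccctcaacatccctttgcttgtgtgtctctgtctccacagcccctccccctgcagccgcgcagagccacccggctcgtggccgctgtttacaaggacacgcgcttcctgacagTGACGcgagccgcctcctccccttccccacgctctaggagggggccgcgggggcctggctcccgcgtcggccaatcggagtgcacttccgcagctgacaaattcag
Jun: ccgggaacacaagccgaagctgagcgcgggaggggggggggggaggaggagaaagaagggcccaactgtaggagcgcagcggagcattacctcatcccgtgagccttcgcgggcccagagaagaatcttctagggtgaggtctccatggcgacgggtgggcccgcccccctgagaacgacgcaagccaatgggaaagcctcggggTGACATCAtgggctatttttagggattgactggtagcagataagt
*Fos* held TGACG 2 times, at 129 and 66 bases before the start, and TATAAA at 33 bases. *Junb* held TGACG at 106 bases, and *Jun* held TGACATCA at 45 bases. Among 32851 windows of the same length, 17.8% held TGACG, 12.4% TATAAA and 2.93% TGACATCA on either strand. TGACG stood in 3 of the 6 member windows in the table (*Fos*, *Fosb* and *Junb*). The full elements TGACGTCA and TGACTCA, present in 1.55% and 4.46% of all windows, and the CArG box, in 1.47%, matched none of the 6. Bases farther upstream than 250 were not searched, and no window was available for *Fosl1*. TGACGTCA overlaps TGACG by construction. A match describes letters only and is not a site shown to be bound.

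Levels are the authors' log2 values per probe set. Their summary method (DFW) shrinks what separates arrays of a tissue, and does so unequally from probe set to probe set, so that the median within-group SD of a probe set was 1.1e-05 in liver, against 0.215 between tissue means. Differences between groups are therefore given in units of the within-group SD, with the standard error of that ratio, and n was 7 mice in each group throughout. A log2 difference on this scale is not a fold change. Levels between tissues are a description, because the values of each tissue may have been summarized apart, and in bulk RNA fewer cells of a type and less RNA per cell cannot be told apart.

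The tissue markers matched the labels: albumin (*Alb*) had a mean level of 15.0 in liver against 7.04 in WAT, adiponectin (*Adipoq*) 14.4 in WAT against 5.89 in liver, and *Ucp1* 14.2 in BAT against 6.36 in WAT. Both fats also carried RNA of a neighbouring tissue. The summed level of 6 epididymis markers in WAT ranged from 42.6 to 70.9 in water mice and from 46.7 to 80.0 in VAAM mice, with the 2 arrays numbered 1 highest. The summed level of 6 skeletal muscle markers in BAT ranged from 43.9 to 64.9 in water mice and from 43.5 to 63.8 in VAAM mice. These sums overlapped between the treatments. In WAT, though, every VAAM array lay above the median epididymis sum of the water arrays (43.9), and the VAAM median was 51.2. In units of the within-group SD, 2 of these 6 markers were higher with VAAM in WAT and 4 were lower. Markers of other cell types shifted with VAAM in the deposited values, although none passed limma. All 5 endothelial markers were lower in WAT (median -1.01 SD), and all 5 macrophage markers were higher in liver (median 0.51 SD). In BAT 2 of the 3 measured adipocyte markers were higher, *Adipoq* by 1.96 ± 0.67 SD and *Retn* by 2.11 ± 0.69 SD. Their part in the differences of the members was not tested. Correlations with the epididymis markers in WAT or the muscle markers in BAT as a covariate are given where they moved. No covariate was made from the endothelial, macrophage or adipocyte markers.

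Seen across tissues, the main probe sets of *Fos*, *Fosb*, *Fosl2*, *Jun* and *Jund* had their highest level in WAT and their lowest in liver. The mean level of *Fos* was 8.24 in WAT, 7.29 in BAT and 6.64 in liver. That of *Jun* was 9.34, 8.46 and 7.50 in the same order. *Jund*, the member usually expressed without a stimulus, had 9.94, 9.58 and 8.49. *Fosl2* had 8.67, 7.58 and 6.58. *Fosb*, a close relative of *Fos*, was at 6.47 in WAT, 6.31 in BAT and 6.17 in liver. *Junb* and *Fosl1* did not follow this order. *Junb* was highest in BAT (6.97), followed by liver (6.92) and WAT (6.78), and *Fosl1* was highest in liver (6.64), followed by BAT (6.61) and WAT (6.31). In each of the 11 probe sets the 14 arrays of one tissue did not overlap with those of the next. The same count was not made over all probe sets. A typical probe set had an SD of 1.1e-05 within liver against 0.215 between tissue means. The separation is therefore not read as a trait of these genes. The widest range of a probe set inside a tissue was 0.0448 (*Fos* in BAT), and the closest tissue means were those of the second *Fosl1* probe set in liver and BAT, 0.005 apart with a range of at most 4.84e-05 in a tissue. The second probe set of *Jun* kept the order of the first. The second probe sets of *Fosl2* and *Jund* did not: that of *Fosl2* was highest in BAT (7.18) and that of *Jund* in liver (6.94).

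In the liver, *Fos* and its partner *Jun* were higher in VAAM mice, whereas *Fosb* and *Fosl1* were lower. *Fos* in water mice had a lowest level of 6.6370, a median of 6.6390 and a highest of 6.6403. In VAAM mice the lowest was 6.6390, the median 6.6405 and the highest 6.6441. Thus 6 of 7 VAAM mice lay above the water median, and the groups overlapped. The difference for *Fos* was 1.55 ± 0.62 SD, the largest of the 7 members in this tissue.

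*Jun* in liver had a lowest, median and highest level of 7.4952, 7.4964 and 7.4995 in water mice. In VAAM mice these were 7.4962, 7.4981 and 7.4992. The water group held both the lowest and the highest mouse, and the difference was 0.88 ± 0.56 SD. The VAAM mice exceeded the water median in 6 of 7 cases. Without water mouse 1 it came to 1.54. The second probe set of *Jun* gave the same 0.88 ± 0.56 SD, and the pair correlated across the 14 mice with r = 0.93. *Junb*, which often restrains Jun activity, had 6.9223, 6.9233 and 6.9243 in water mice and 6.9226, 6.9237 and 6.9253 in VAAM mice, a difference of 0.52 ± 0.55 SD. Without VAAM mouse 3 it was 0.24.

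Among the other members in liver, *Fosl2* (Fra-2) differed by 0.79 ± 0.56 SD at its first probe set and by 0.02 ± 0.54 at its second, and its sign turned when arrays were centred on their medians (-0.24). *Fosb* differed by -0.87 ± 0.56 SD, and 2 of 7 VAAM mice exceeded the water median. Its levels ranged only from 6.174741 to 6.174768 over both groups. *Fosl1* (Fra-1) was at -0.71 ± 0.55 and -0.75 ± 0.56 SD, where 0 and 2 of 7 VAAM mice exceeded the water median, over a range of log2 values of a few millionths at its first probe set. *Jund* was at 0.04 ± 0.54 and 0.00 ± 0.54 SD, and its first value turned to -0.14 under quantile normalization and -0.48 under centring.

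In WAT the main probe sets of all 7 members lay within 0.5 SD of the water mice. *Fos* had a lowest, median and highest level of 8.2291, 8.2339 and 8.2362 in water mice. In VAAM mice these were 8.2311, 8.2340 and 8.2446, so that the medians were almost level and VAAM mouse 5 stood above all others. The difference was 0.42 ± 0.54 SD. *Junb* was at 0.22 ± 0.54, *Fosb* and *Fosl1* at 0.18 ± 0.54 each, *Jun* at 0.15 ± 0.54, *Fosl2* at 0.07 ± 0.54 and *Jund* at -0.26 ± 0.54 SD. Under quantile normalization or median centring the signs of *Fosb*, *Fosl1*, *Fosl2*, *Jun* and *Junb* turned, and those of *Fos* and *Jund* did not. The second probe set of *Jund* gave 1.65 ± 0.63 SD, and 7 of 7 VAAM mice exceeded the water median. Its levels ranged from 6.583470 to 6.583472 over both groups, and its spread was smaller than that of all but 0.195% of probe sets.

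Within BAT, *Fosl2* stood out among the members. Its level had a lowest value of 7.5787, a median of 7.5796 and a highest value of 7.5814 in water mice. In VAAM mice these were 7.5817, 7.5820 and 7.5850. All 7 VAAM mice lay above all 7 water mice, by 2.41 ± 0.73 SD. Over all probe sets, 0.0422% (19 of 45037) had every VAAM array above every water array in BAT. The rule used this contrast, so the count is given as background only. VAAM mouse 6 lay 4.62 SD above the water mean, and leaving out any one array gave 2.25 to 2.81 SD. After quantile normalization the difference was 1.54 SD, and after centring 1.93 SD. The second probe set of *Fosl2* showed 0.01 ± 0.54 SD, and the pair correlated with r = 0.19 in BAT, 0.17 in liver and 0.63 in WAT.

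*Jun* was also higher in BAT. It had 8.4564, 8.4580 and 8.4590 as lowest, median and highest level in water mice, and 8.4571, 8.4601 and 8.4619 in VAAM mice. The groups overlapped, and 5 of 7 VAAM mice exceeded the water median. The difference was 1.23 ± 0.59 SD at the first and 1.30 ± 0.60 at the second probe set, and that of the first was 0.67 SD after quantile normalization. Between mice of a group, *Jun* in BAT had r = 0.66 with the macrophage markers and 0.52 with the T cell markers. With the epididymis markers it had r = -0.62. The part of these markers in the difference was not tested. *Fosb*, at 0.87 ± 0.56 SD, exceeded the water median in 5 of 7 VAAM mice but turned to -0.22 under quantile normalization. Its levels in BAT ranged only from 6.312042 to 6.312142 over both groups.

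*Fos* and *Junb* had lower means with VAAM in BAT. *Fos* spanned 7.2658 to 7.3085 in water mice with a median of 7.2900, and 7.2707 to 7.3106 in VAAM mice with a median of 7.2813, a difference of -0.08 ± 0.54 SD. *Junb* spanned 6.9692 to 6.9702 in water mice with a median of 6.9697, and 6.9694 to 6.9697 in VAAM mice with a median of 6.9695, a difference of -0.55 ± 0.55 SD. The highest water mouse for both genes was mouse 1, and without it *Junb* was at -0.28 SD and *Fos* turned to 0.16 SD. *Fosl1* (0.08 ± 0.54 SD) and *Jund* (-0.10 ± 0.54 SD) were close to the water mice. Quantile normalization turned *Fosl1* to -0.22 SD, and *Jund* turned to 0.32 SD without water mouse 1.

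**Figure D1:**
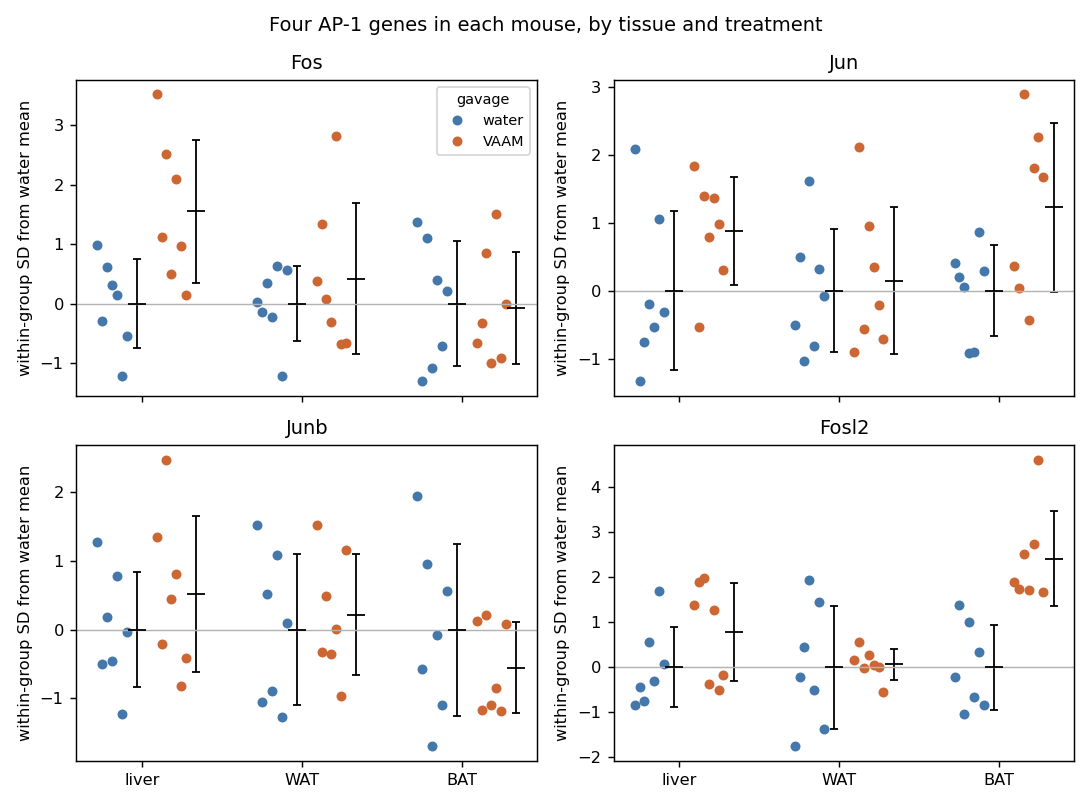
Level of *Fos*, *Jun*, *Junb* and *Fosl2* in each mouse, as the number of within-group SD from the mean of the water mice of that tissue (y axis), for liver, WAT and BAT (x axis). Points are mice in order of their number, and the bars give the mean ± SD of each group of 7. *Fosl2* in BAT has all VAAM points above all water points, by 2.41 SD on average, whereas the other panels show overlapping groups.

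**Figure D2:**
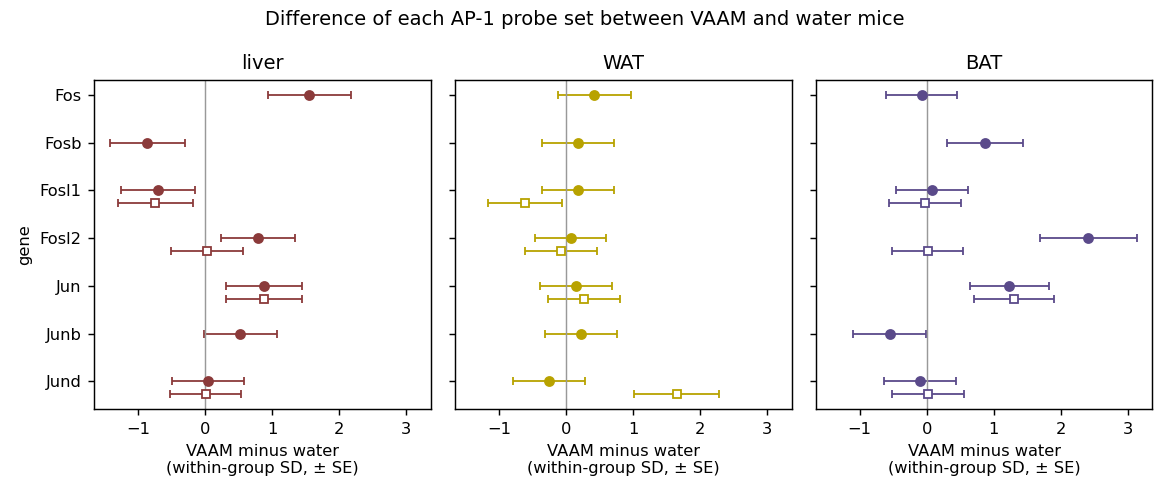
VAAM minus water for each AP-1 probe set in within-group SD (x axis, ± SE, n = 7 and 7) by gene (y axis) and tissue. Filled circles are the probe set with the highest mean of a gene and open squares the other one. *Fos* in liver (1.55) and *Fosl2* in BAT (2.41) lie farthest from 0 among the filled circles, and the open square of *Fosl2* in BAT lies at 0.01.

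Counted over tissues, 15 of the 21 differences of the main probe sets were above 0: 5 of 7 in liver, 6 in WAT and 4 in BAT. Among all genes, 8652 of 18193 were higher in liver, 9143 in WAT and 9427 in BAT. The count fell to 7 of 21 after quantile normalization and to 9 after centring on array medians. The share of all genes that were higher moved as well. In liver, WAT and BAT it was 26.1%, 4.42% and 12.2% after quantile normalization, and 9.2%, 3.14% and 81.9% after centring. With limma over all probe sets, the share passing an adjusted p of 0.05 was 0% in each tissue. At an unadjusted p under 0.05, 1878 probe sets were higher and 2218 lower in liver, 744 and 948 in WAT, and 975 and 1321 in BAT. After quantile normalization these were 310 and 3000 in liver, 14 and 74 in WAT, and 43 and 73 in BAT, and after centring 194 and 216, 15 and 58, and 85 and 76.

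The group means do not show whether the members varied together from mouse to mouse, a measure that the choice of members did not use. Deviations from the group means were correlated for the 21 pairs in each tissue, and p was obtained by permuting mice within groups. None of the 63 pairs passed after Benjamini-Hochberg adjustment over the 63, and 8 had an unadjusted permutation p under 0.05. The positive pairs numbered 14 of 21 in liver, 9 in WAT and 14 in BAT. Of all genes, 59.4%, 49.2% and 55.6% had a positive r with *Fos* in these tissues. No count was made over all pairs of genes, so those of the members are not read as a trait of theirs.

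The smallest p belonged to *Fos* and *Junb* in liver, where r was 0.76 (two-sided permutation p = 0.00416, adjusted p = 0.258) and Spearman's rho was 0.83 (permutation p = 0.00107, adjusted p = 0.0674). The relation had a similar size in water mice (r = 0.80, exact p = 0.0312, n = 7) and VAAM mice (r = 0.75, exact p = 0.0522, n = 7), and r was 0.77 without the 2 mice farthest from the *Fos* median. It was 0.74 with an adjusted permutation p of 0.0121 after quantile normalization and 0.76 with 0.00796 after centring. Under these scalings 30 and 31 of the 63 pairs passed, without a count over all pairs of genes beside them. Centring subtracts array medians that spanned 6.72943 to 6.72967 in liver, many times the SD of a typical probe set.

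In BAT the same pair had r = 0.69 (permutation p = 0.0123, adjusted p = 0.258) and rho = 0.71 (permutation p = 0.0106, adjusted p = 0.192). The relation lay mostly with the water mice (r = 0.90, exact p = 0.00694, n = 7). In VAAM mice r was 0.29 (exact p = 0.498, n = 7), and the difference between the groups was not tested. The muscle markers moved with both genes in BAT, with r = 0.71 for *Junb* and 0.54 for *Fos*, as did the array medians, with r = 0.78 and 0.62. With muscle as a covariate the pair had r = 0.51 (adjusted permutation p = 0.391). After quantile normalization its sign turned (r = -0.44). In WAT, r was 0.20 (permutation p = 0.488, adjusted p = 0.809).

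*Jun* and *Junb* had a negative relation in WAT, with r = -0.68 (permutation p = 0.00982, adjusted p = 0.258) and rho = -0.72 (permutation p = 0.00548, adjusted p = 0.173). Here r was -0.76 in water mice (exact p = 0.0415, n = 7) and -0.61 in VAAM mice (exact p = 0.145, n = 7). Quantile normalization turned the sign (r = 0.92), as did centring (r = 0.99), which subtracts the same array median from both genes. The same pair had r = 0.41 in liver and 0.28 in BAT, with permutation p = 0.136 and 0.253. *Fosl2* and *Junb* had a negative r in WAT as well (r = -0.61, permutation p = 0.0458, adjusted p = 0.361) and in BAT (r = -0.51, permutation p = 0.067, adjusted p = 0.392). *Fosb* and *Fosl2* had r = 0.60 in WAT (permutation p = 0.0384, adjusted p = 0.361) and r = 0.57 in liver (permutation p = 0.0581). *Fosl1* and *Jund* likewise had a negative r in WAT (r = -0.56, permutation p = 0.0309) and in liver (r = -0.51, permutation p = 0.0371), with adjusted p = 0.361 for both. *Fos* and its classical partner *Jun* had r = 0.40 in liver, 0.13 in WAT and 0.37 in BAT.

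**Figure D3:**
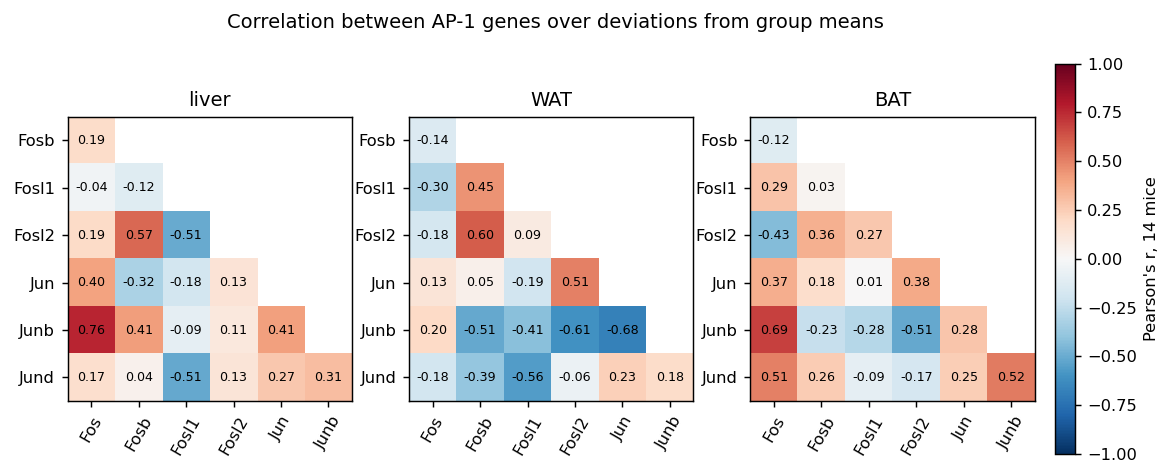
Pearson's r (colour and number) between each pair of AP-1 genes over the 14 mice of a tissue, from deviations from the group means. *Fos* and *Junb* have 0.76 in liver and 0.69 in BAT but 0.20 in WAT, and *Junb* has negative values with *Jun* (-0.68) and *Fosl2* (-0.61) in WAT.

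The arrays carry a number from 1 to 7 in each group and tissue. Taking a number as the mouse, each member was compared with itself between tissues, over 21 relations. *Junb* alone had a relation that passed. Between WAT and BAT its r was 0.84 (permutation p = 0.00075, adjusted p = 0.0158 over the 21 relations) and rho was 0.87 (permutation p = 0.00045, adjusted p = 0.00945). The relation was present in water mice (r = 0.84, exact p = 0.0234, n = 7) and in VAAM mice (r = 0.89, exact p = 0.00794, n = 7), and r was 0.77 without the 2 farthest mice. The 2 groups may not be separate evidence. Water and VAAM arrays of the same number correlated in *Junb* with r = 0.78 in WAT and 0.88 in BAT, neither passing after adjustment. The permutation takes no account of such a likeness. Between liver and WAT r was 0.67 (permutation p = 0.0101, adjusted p = 0.0707) and between liver and BAT 0.64 (permutation p = 0.00816, adjusted p = 0.0707).

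Over all 45037 probe sets, 0.939% had an r as high as that of *Junb* between WAT and BAT, 3.06% between liver and WAT and 4.21% between liver and BAT. The median r over all probe sets was 0.13, 0.06 and 0.11 in that order. *Junb* in BAT moved with the muscle markers (r = 0.71) and in WAT with the epididymis markers (r = 0.39), and with the array medians it had r = 0.78 in BAT and 0.41 in WAT. With both marker scores as covariates the WAT and BAT relation of *Junb* had r = 0.44 (adjusted permutation p = 0.335). Without the arrays numbered 1 of both groups it had r = 0.78 (adjusted permutation p = 0.104). It fell to 0.21 after quantile normalization and 0.16 after median centring, with adjusted permutation p = 0.715 and 0.838.

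*Fos* had positive but smaller values between tissues, with r = 0.41 for liver and WAT (permutation p = 0.232), 0.41 for liver and BAT (permutation p = 0.151) and 0.57 for WAT and BAT (permutation p = 0.0305, adjusted p = 0.128). *Jun* had -0.35, 0.33 and -0.44, none with a permutation p under 0.05. *Fosb* had -0.56 between liver and WAT (permutation p = 0.0305, adjusted p = 0.128), which came to -0.23 without the 2 farthest mice. No relation of *Fosl1*, *Fosl2* or *Jund* had a permutation p under 0.05.

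**Figure D4:**
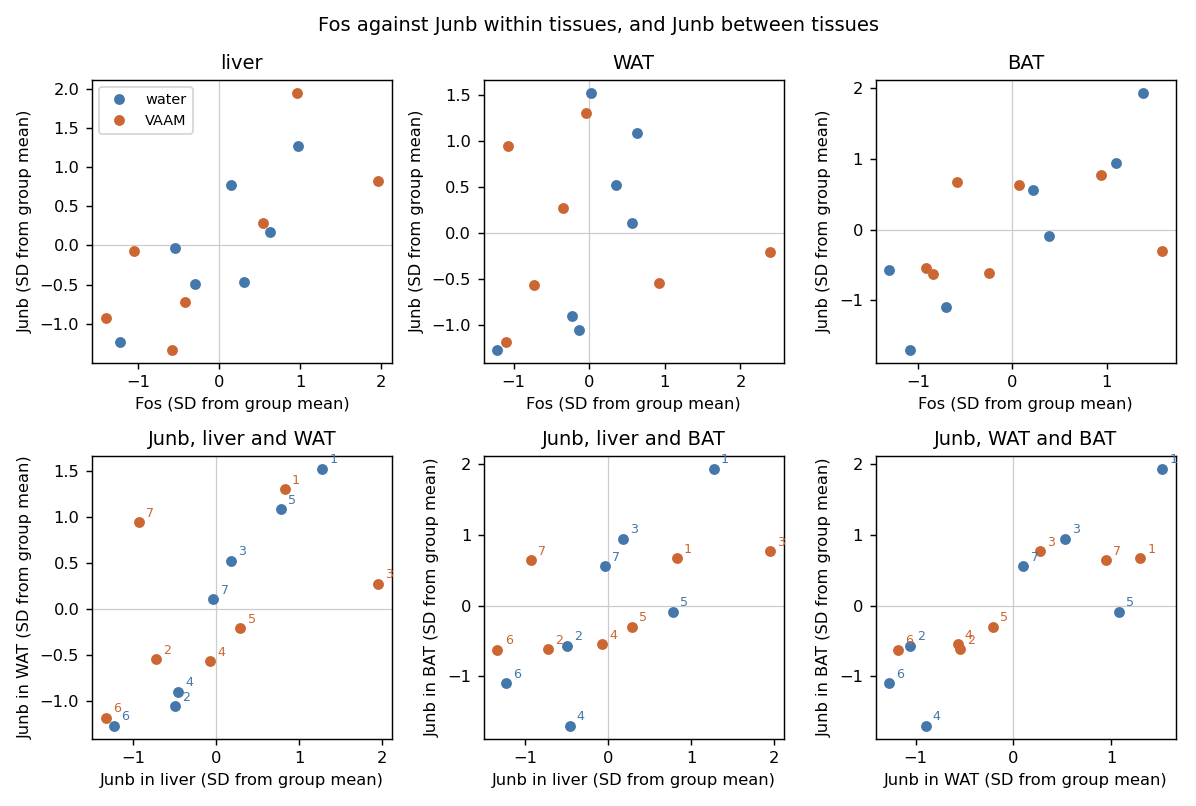
Upper row: *Junb* against *Fos* in each mouse of liver, WAT and BAT, both as within-group SD from the group mean. Lower row: *Junb* of one tissue against *Junb* of another, with the number of each mouse, where r was 0.67 (liver and WAT), 0.64 (liver and BAT) and 0.84 (WAT and BAT).

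To find genes with a pattern like *Fos*, its deviations were set against every probe set of every other gene, and a gene was taken at its likest probe set. For 14 of the 32 genes so named that was not the probe set with the highest mean. Over the 42 arrays the likest was *Egr1*, a zinc finger factor of the immediate early class, with r = 0.75 (0.81 in liver, 0.67 in WAT and 0.76 in BAT). *Ptgs2*, the inducible cyclooxygenase, had r = 0.70, with 0.62, 0.74 and 0.74 in the same order, but its probe set with the highest mean had -0.03, 0.33 and 0.21. *Cxcl1*, a neutrophil chemokine, had r = 0.70 (0.63, 0.66 and 0.80), and 0.69 at its probe set with the highest mean. *Ccar2* (r = 0.65) and *Eme1* (r = 0.64) came next. The arrays share the tissue and the treatment groups, and no p is given for these values.

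The likest genes inside each single tissue were taken in the same way. Their r in the other tissues ran from -0.63 (*Cln8* in liver) to 0.68 (*D6Ertd474e* in BAT). In liver they were *Pglyrp1* (r = 0.93, a peptidoglycan recognition protein), *Rabepk* (0.92), *Mxra7* (0.91), *D930048N14Rik* (0.89) and *D6Ertd474e* (0.89), of which *Pglyrp1* had 0.07 in WAT and 0.51 in BAT. The highest-mean probe sets of *Rabepk* and *Mxra7* had -0.26 and 0.20 in liver. In WAT they were *Flcn* (0.87) and its partner *Fnip1* (0.84), *Cln8* (0.83), *Mzt1* (0.82) and *Pdk1* (0.82), the last pair with 0.56 and 0.65 at their highest-mean probe sets. In BAT they were *2310022A10Rik* (0.92), *Homer2* (0.87), *Xkr8* (0.85), *Slco4a1* (0.85) and *Ptk2b* (0.84), where the highest-mean probe sets of *Homer2* and *Slco4a1* had 0.14 and 0.83. In a limma fit over 45036 other probe sets with *Fos* as a covariate, 1 passed in liver (0.00222%), which names no gene (r = 0.95, limma adjusted p = 0.0292), and none in WAT or BAT (0%). At an unadjusted p under 0.05, 3452 probe sets had a positive and 2431 a negative slope with *Fos* in liver, 460 and 847 in WAT, and 1329 and 2206 in BAT. The same fits for the other 6 members passed 1 probe set in all, the second probe set of *Jun* with *Jun* in WAT (limma adjusted p = 0.0173, r = 0.95).

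For the other members the 2 likest genes over 42 arrays were as follows. *Junb* went with *Btg2*, an antiproliferative immediate early gene (r = 0.69), and *Ddx49*, an RNA helicase (0.65). *Jun* went with *Klf6*, a Krüppel-like factor (0.65), and *Cass4* (0.64). *Fosl2* went with *Klb*, the co-receptor of FGF21 (0.61), and *Epha10* (0.61). *Fosb* had *Krtap5-1* (0.74) and *Zfhx2* (0.67), *Fosl1* had *4933416E14Rik* (0.67) and *Usf1* (0.66), and *Jund* had *Pgf* (0.68) and *Gm17546* (0.66). At the highest-mean probe set r was 0.49 for *Klf6*, 0.49 for *Krtap5-1*, 0.02 for *Ddx49*, 0.06 for *Klb*, 0.11 for *Usf1* and 0.00 for *4933416E14Rik*.

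A list of 32 other immediate early genes, all of them measured, was then followed. None passed limma in any tissue. In liver 21 of 32 were higher in VAAM mice, with a median of 0.45 SD against -0.04 over all genes. In the deposited values 47.6% of all genes were higher. Quantile normalization left 16 of 32 higher beside 26.1% of all genes, and median centring left 19 beside 9.2%. The highest was *Ccn2*, a matricellular protein (1.92 ± 0.66 SD, limma adjusted p = 0.364), which exceeded the water median in 7 of 7 VAAM mice. The lowest was *Egr3* (-0.96 ± 0.57 SD, limma adjusted p = 0.616). Before adjustment 9 of the 32 were under 0.05 in liver, a larger share than the 9.09% of all probe sets. The latter counts every probe set and the list 1 per gene, and no set test was run.

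In BAT 26 of 32 were higher, with a median of 0.47 SD against 0.03 over all genes. In the deposited values 51.8% of all genes were higher. Quantile normalization left 17 higher beside 12.2% of all genes, and centring left 28 beside 81.9%. The highest was *Dusp6*, a phosphatase of ERK (2.03 ± 0.68 SD, 6 of 7 VAAM mice, limma adjusted p = 0.901), and the lowest *Klf10* (-0.74 ± 0.56 SD, limma adjusted p = 0.949). Before adjustment 5 of the 32 were under 0.05, a larger share than the 5.1% of all probe sets, again without a set test.

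In WAT 20 of 32 were higher, with a median of 0.11 SD against 0.00 over all genes. In the deposited values 50.3% of all genes were higher. The count of 20 fell to 6 beside 4.42% of all genes after quantile normalization, and to 7 beside 3.14% after centring. The highest was *Egr3* (1.65 ± 0.63 SD, limma adjusted p = 1) and the lowest *Klf10* (-1.61 ± 0.63 SD, limma adjusted p = 1). Here too, 5 of the 32 were under 0.05 before adjustment, a larger share than the 3.76% of all probe sets, without a set test. *Sik1*, a kinase induced by cAMP, had 1.61, 1.64 and 1.69 SD in liver, WAT and BAT, and *Dusp1*, a phosphatase of JNK and p38, had 1.63, 1.51 and 1.13 SD. These genes were picked after their values were seen, and neither passed limma.

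**Figure D5:**
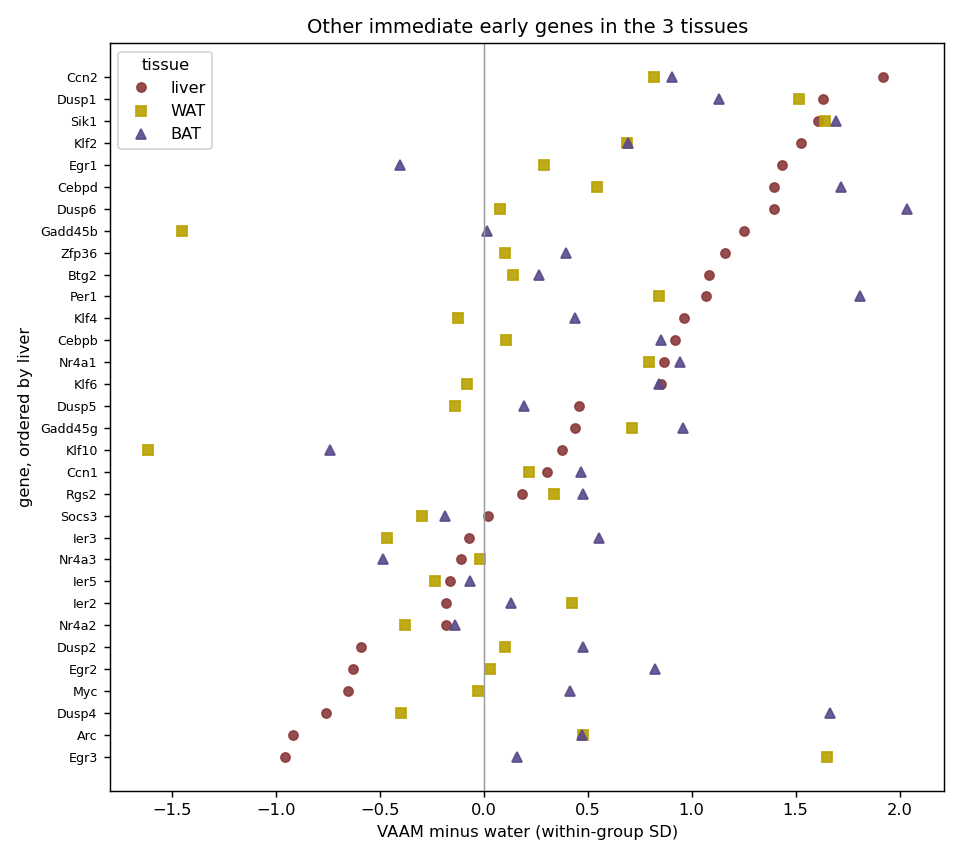
VAAM minus water in within-group SD (x axis) of the 32 other immediate early genes (y axis, ordered by liver), with 1 marker per tissue. In liver 21 and in BAT 26 of the 32 lie above 0, and no gene passed limma.

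Seen as correlation with *Fos* between mice, 6 of the 32 genes had r over 0.5 in liver (18.8%, against 11.4% of all genes), 2 in WAT (6.25% against 2.07%) and 5 in BAT (15.6% against 5.88%). In liver these were *Btg2* (0.81), *Egr1* (0.81), *Nr4a1* (0.81), *Dusp1* (0.71), *Nr4a2* (0.63) and *Gadd45b* (0.56). In WAT they were *Egr1* (0.67) and *Klf10* (0.50). In BAT they were *Egr1* (0.76), *Dusp1* (0.75), *Ier2* (0.71), *Btg2* (0.69) and *Klf10* (0.56). *Egr1* was thus over 0.5 in all 3 tissues. The lowest values were those of *Per1* in liver (-0.51) and of *Rgs2* in WAT (-0.58) and BAT (-0.71). The median r was 0.21 in liver, 0.07 in WAT and 0.21 in BAT, against 0.09, -0.01 and 0.05 over all genes.

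Dimer partners outside the family were represented by 14 measured genes of the ATF, BATF, *Maf* and Nrf groups. None passed limma. In liver 6 of 14 were higher, from *Batf2* (-0.81 ± 0.56 SD, limma adjusted p = 0.688) to *Atf4*, the factor of the amino acid response (1.31 ± 0.60 SD, 7 of 7 VAAM mice, limma adjusted p = 0.495). In WAT 7 of 14 were higher, from *Atf2* (-1.62 ± 0.63 SD) to *Atf3* (1.23 ± 0.59 SD), both with a limma adjusted p of 1. In BAT 8 of 14 were higher, from *Atf7* (-0.95 ± 0.57 SD) to *Nfe2l2* (1.09 ± 0.58 SD), both with a limma adjusted p of 0.946. Of all genes, 47.6%, 50.3% and 51.8% were higher in liver, WAT and BAT in the deposited values. Quantile normalization left 5, 0 and 2 of the 14 higher in liver, WAT and BAT, beside 26.1%, 4.42% and 12.2% of all genes. Centring left 4, 0 and 9, beside 9.2%, 3.14% and 81.9%.

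Upstream of AP-1, 22 genes of kinases, transcription factors, their cofactors and ubiquitin ligases were measured, and none passed limma. In liver 12 were higher, from *Mapk10*, a JNK (-0.89 ± 0.56 SD, limma adjusted p = 0.650), to *Rps6ka3*, the kinase RSK2 (2.06 ± 0.68 SD, 6 of 7 VAAM mice, limma adjusted p = 0.346). In WAT 9 were higher, from *Elk4* (-1.43 ± 0.61 SD) to *Map2k6* (1.46 ± 0.61 SD), both with a limma adjusted p of 1. In BAT 9 were higher, from *Map2k2*, a MEK (-1.38 ± 0.60 SD), to *Srf*, the serum response factor (0.89 ± 0.56 SD), both with a limma adjusted p of 0.946. Quantile normalization left 8, 0 and 0 of these 22 higher in liver, WAT and BAT, and centring 1, 0 and 19. The shares of all genes, deposited or rescaled, were those given for the dimer partners.

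Of 23 measured genes described as AP-1 targets, none passed limma. In liver 15 were higher, with a median of 0.24 SD, from *Cdkn1a*, a cell cycle inhibitor (-0.97 ± 0.57 SD, limma adjusted p = 0.605), to *Mmp14*, a membrane metalloproteinase (1.92 ± 0.66 SD, 7 of 7 VAAM mice, limma adjusted p = 0.364). In WAT 12 were higher, from *Tgfb1* (-0.97 ± 0.57 SD) to *Il6* (1.16 ± 0.58 SD), both with a limma adjusted p of 1. In BAT 13 were higher, from *Tgfb1* (-0.79 ± 0.56 SD) to *Plaur*, the urokinase receptor (0.86 ± 0.56 SD), both with a limma adjusted p of 0.946. In the deposited values 47.6%, 50.3% and 51.8% of all genes were higher in liver, WAT and BAT. Quantile normalization left 8, 1 and 10 of the 23 higher, beside 26.1%, 4.42% and 12.2% of all genes. Centring left 8, 2 and 15, beside 9.2%, 3.14% and 81.9%.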

How the data were processed

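Affymetrix mouse genome arrays had been summarized by the authors with the distribution free weighted method (DFW) in Bioconductor, with R 2.7.2 per the labels. The deposited values are log2 values per probe set. Their base, not given in the sources used here, was read as 2 from the range of values. Of 45101 probe sets, 64 controls were left out, and no filter on low values was used. A probe set was named only where 1 gene was given, and a gene was represented by its probe set with the highest mean over 42 arrays. VAAM and water were compared within tissues with limma 3.58.1 in R 4.3.3 over 45037 probe sets. Rank products, the study's test, served as an alternative. Correlations used 100000 permutations within groups, or all 5040 orders within 7 mice. Both limma fits were tested on simulated data with independent normal noise in each probe set. These data held no shifts shared by an array, so they do not show how the fits behave on the deposited values. Python 3.11.15, numpy 2.4.6, pandas 2.3.3, scipy 1.17.1 and matplotlib 3.10.9 were used. The members and lists were chosen with earlier results of these data known. Of 98 genes in the 4 pathway lists 91 were measured. Genes were named by a rule: all members, the highest and lowest gene of each list, the immediate early genes with their r with *Fos*, and the genes likest to each member at any of their probe sets. The differences of *Sik1* and *Dusp1* are given outside this rule. The labels do not give cages or extraction days. The p-values treat the mice of a group as independent, which could not be checked here. Precision is limited by 7 arrays per group.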

Additional observations from a re-analysis of the deposited data

Results flagged for a closer look

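In groups of 7 mice, a highest or lowest value was set apart when its gap to the next, as a share of the group range, exceeded Dixon's critical value, which chance gives in about 1 of 20 groups. Over 66 groups of probe sets, 5 values met this. In BAT, VAAM mouse 6 lay 4.615 SD above the water mean for the first probe set of *Fosl2* and 0.791 SD above it for the second. VAAM mouse 5 lay 2.465 SD above for the first probe set of *Fosl1* in BAT. In WAT, water mouse 4 lay 2.126 SD above the water mean for the second probe set of *Jun*, and VAAM mouse 1 lay 0.257 SD above it for the second probe set of *Jund*, far below the other VAAM mice. Their part in the group differences was not tested beyond leaving out each array.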

How the results depend on the processing

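Under 231 recalculations of single values, 208 kept their direction and side of the threshold or moved by less than 1 SD. Most exceptions came from rescaling: array medians spanned 6.90756 to 6.91328 in WAT and 6.77386 to 6.77539 in BAT, far more than the SD of a typical probe set, so centring writes the array median into most probe sets. Centring gave 41111 probe sets associated with *Fos* in BAT (124 positive and 40987 negative). Members higher with VAAM numbered 15 of 21, but 7 after quantile normalization and 9 after centring. The shares of all genes higher in liver, WAT and BAT were 26.1%, 4.42% and 12.2% after quantile normalization. After centring they were 9.2%, 3.14% and 81.9%. Of the 21 differences, 8 changed sign under either scaling and 6 at their lowest and 2 at their highest value without single arrays, most of them by less than 1 SD. Pairs passing numbered 0 of 63, but 30 after quantile normalization and 31 after centring, and no count was made over all pairs of genes. The relations of one member across tissues that passed numbered 1, but 3 by Spearman's rho and 0 after quantile normalization, centring or with the marker covariates or without the arrays numbered 1, both added after seeing the data. Signs turned for *Fos* and *Junb* in BAT (-0.44 quantile, -0.38 centred), *Fos* and *Jun* in WAT (-0.0022 for rho, and -0.0637 to 0.20 without single arrays) and in BAT (-0.11 quantile), *Jun* and *Junb* in WAT (0.92 and 0.99), *Fos* between liver and WAT (-0.15 quantile), *Junb* between liver and WAT (-0.47 and -0.53) and between liver and BAT (-0.33 and -0.0548), and the cause was not tested. For VAAM against water, limma passed 0 probe sets in each tissue. In liver quantile normalization passed 1, and leaving out single arrays 0 to 5, the most without water mouse 2. Rank products called 1847 in liver (1213 higher), 1589 in WAT (906) and 2023 in BAT (987), but their null permutes each array and assumes equal spread of all probe sets. The liver association with *Fos* passed 1, with 0 after quantile normalization, centring or among probe sets above the median level, and 0 to 10 without single arrays, the most without VAAM mouse 4, and in BAT 0 to 1. Leaving out the WAT arrays numbered 1 changed no other count. With the replicate number as a block, limma passed 1 probe set in liver, the association with *Fos* in liver 0, *Fos* in liver came to 2.60 SD and the members higher stayed 15 of 21. This block is given here because same-numbered water and VAAM arrays correlated from -0.19 to 0.48 over all probe sets, so the number was not taken as a pairing between the treatments.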

Other observations

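Water and VAAM mice with the same number resembled each other in some members, a pattern noticed after the values were seen. For *Junb* the 7 water and 7 VAAM arrays correlated by number with r = 0.64 in liver (exact p = 0.118), 0.78 in WAT (exact p = 0.045) and 0.88 in BAT (exact p = 0.00853), with p = 0.323, 0.236 and 0.0896 after adjustment over 21 exact tests. For *Fos* r was 0.72, 0.45 and 0.46 (exact p = 0.0679, 0.317 and 0.296). *Fosl2* in liver went the other way, with r = -0.84 (exact p = 0.00298, adjusted p = 0.0626). *Jund* in WAT had r = 0.83 (exact p = 0.0216, adjusted p = 0.151). No relation passed after adjustment. What a number stands for, such as a cage or the order of handling, is not given in the sources used here, and its part in the spread of *Fos* and *Junb* was not tested.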
